A study of Danio rerio with 8 samples.

Results

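The genes ccn1 and ccn2a encode secreted proteins of the CCN family, and their levels are described here in hearts of zebrafish larvae kept with or without sorafenib. They were selected on their own difference between sorafenib and control hearts, measured as processed array signal, so that difference is given as a description without a test. Probes were assigned to them through the RefSeq accession that each probe carries. The selection holds 2 genes with 4 probes, among 10536 genes with a named probe and 43603 probes on the array.

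CCN proteins are matricellular: they are secreted into the extracellular matrix and act there on cells, rather than serving as scaffold. In mammals CCN1, formerly CYR61, and CCN2, formerly CTGF, bind integrins and heparan sulfate proteoglycans and act in adhesion, angiogenesis and fibrosis. Both are classical target genes of YAP and TAZ, the transcriptional coactivators that the Hippo kinases restrain, and both are also induced through SRF with its MRTF coactivators. CCN2 is in addition induced by TGF-beta. Mouse embryos that lack CCN1 have vascular and cardiac septal defects, and zebrafish ccn2a is known for its role in glial bridging during spinal cord regeneration.

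The study has 2 groups of larvae at 4 days post-fertilization, with 4 arrays each. Sorafenib larvae were kept in 1 uM of the drug, an inhibitor of RAF kinases and of vascular growth factor receptors, between 72 and 96 hours post-fertilization, and control larvae received the vehicle alone over the same hours. All larvae were raised in egg water, and the labels give no strain, genotype or number of hearts per sample. Total heart RNA was amplified with a Cy3 label and read on single-colour Agilent arrays, and the series' design text calls the replicates of a group independent experiments.

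Of the spots on an array, 54.98% to 59.54% were well above background, and 0 were saturated. All 11 measured genes of a cardiomyocyte marker list were well above background on all 8 arrays, among them nppa, which encodes atrial natriuretic peptide, and tnnc1a, a cardiac troponin C gene. Markers of other tissues were present too, and their values are given below beside the genes they moved with. Slide 1 carried replicates 1 and 2 of both groups and slide 2 carried replicates 3 and 4, so each comparison could also be made within a slide. Precision is limited by the 4 arrays of each group. Levels are the log2 of processed signal with the array's 75th percentile subtracted, so 0 is that percentile and a difference of 1 is a doubling. Each probe has its own hybridisation strength, and levels are compared only within a probe.

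The brighter probe of ccn1 (A_15_P116681, accession NM_001001826) was higher in every sorafenib heart sample than in any control sample. The control levels were 2.92, 2.39, 2.45 and 2.31 in replicates 1 to 4, and the sorafenib levels were 3.68, 3.76, 3.79 and 3.15. At this scaling control replicate 1 was the highest control and sorafenib replicate 4 the lowest sorafenib sample, and 0.23 separated them. The means were 2.52 ± 0.28 in control and 3.59 ± 0.30 in sorafenib hearts (SD, n = 4 each). The difference was 1.08 with an SE of 0.20, or 2.11-fold, and it was 1.06 on slide 1 and 1.09 on slide 2. The separation was also present before scaling between arrays, where the processed signal was 502.1 to 838.7 in control and 1088 to 1374 in sorafenib samples. The order within groups was another there: the highest control was replicate 3 and the highest sorafenib sample replicate 4. In bulk RNA, more cells that express a gene and more of its RNA per cell cannot be told apart.

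A dimmer probe of ccn1 (A_15_P164791) gave nearly the same difference at this scaling. Its control levels were -0.84, -1.02, -1.66 and -1.14, and its sorafenib levels were 0.26, -0.07, -0.23 and -0.24. The lowest sorafenib sample lay 0.60 above the highest control sample, so the groups did not overlap here either. The means were -1.16 ± 0.35 in control and -0.07 ± 0.23 in sorafenib hearts (SD, n = 4 each). The difference was 1.09 with an SE of 0.21, or 2.13-fold, and 1.02 on slide 1 and 1.16 on slide 2. In the log2 values deposited by the authors, the difference was 0.73 on this probe and 1.00 on the brighter one. The probes of ccn1 did not order the arrays of a group alike: sorafenib replicate 4 stood apart from the other sorafenib samples on the brighter probe, and sorafenib replicate 1 was the highest on the dimmer one.

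The brighter probe of ccn2a (A_15_P112832, accession NM_001015041) likewise had no overlap between the groups. Its control levels were 5.44, 5.32, 5.09 and 5.07, and its sorafenib levels were 6.0, 6.17, 6.14 and 5.67. As for ccn1, at this scaling control replicate 1 was the highest control and sorafenib replicate 4 the lowest sorafenib sample, 0.23 apart. The means were 5.23 ± 0.18 and 5.99 ± 0.23 (SD, n = 4 each), in control and sorafenib hearts respectively. The difference was 0.77 with an SE of 0.15, or 1.70-fold, and 0.71 on slide 1 and 0.82 on slide 2. Before scaling, the processed signal was 3823 to 5209 in control and 5457 to 7880 in sorafenib samples. There the highest control was replicate 3 and the highest sorafenib sample replicate 4.

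The dimmer probe of ccn2a (A_15_P177116) did not separate the groups. Its control levels were -1.77, -1.23, -1.53 and -0.83, and its sorafenib levels were -1.80, -0.28, -1.66 and -0.05. Sorafenib replicates 2 and 4 were above every control, whereas replicate 3 fell among the controls and replicate 1 fell below them. The means were -1.34 ± 0.41 and -0.95 ± 0.91 (SD, n = 4 each), and the difference of 0.40 with an SE of 0.50, or 1.32-fold, was smaller than its SE. In the log2 values deposited by the authors, its difference was 0.19, against 0.70 for the brighter probe. The dimmer probe was well above background on all 8 arrays. Its raw signal was 1.94 to 9.22 times the local background, against 198.4 to 484.8 times for the brighter probe of ccn2a. The dimmer ccn1 probe was at 3.65 to 8.53 times and did separate the groups, and the part of low signal in this was not tested. The higher level of ccn2a in sorafenib hearts therefore rests on 1 probe of 2.

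**Figure D1:**
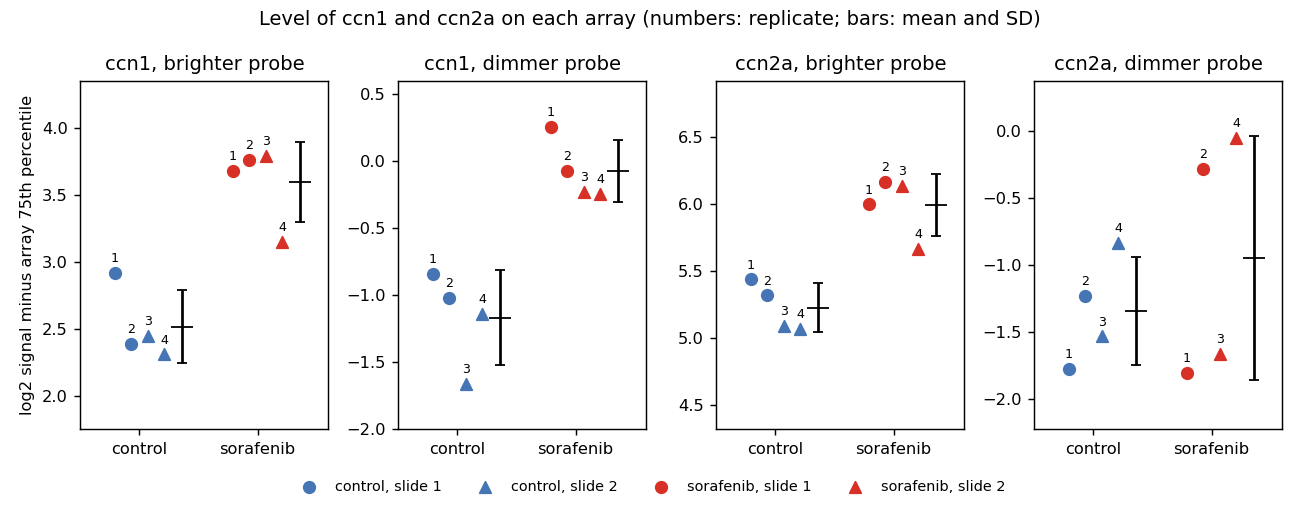
Level of ccn1 and ccn2a on each of the 8 arrays, by probe. The vertical axis is log2 processed signal minus the array's 75th percentile, with its own range in each panel but the same span; circles are slide 1, triangles slide 2, numbers are replicates, and bars are mean ± SD over 4 arrays. The sorafenib points lie above all control points for both ccn1 probes and the brighter ccn2a probe, and overlap them for the dimmer ccn2a probe.

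The place of both genes among all units of the array was as follows. Among the 21526 units tested, each a named gene by its brightest probe or an unnamed probe, 197 had a larger positive difference than ccn1, which is 0.915%, and 596 had a larger one than ccn2a, which is 2.77%. Both genes were among the 488 units, 2.27%, whose sorafenib samples were all above all control samples. Another 408 units, 1.9%, lay entirely the other way, and 48.2% of all units had a positive difference. Because both genes were chosen on this contrast, nothing is read from their place in these counts. By limma with Benjamini-Hochberg adjustment over all units, 0 units (0%) were called higher and 0 (0%) lower. At an unadjusted p under 0.05, limma gave 895 higher units, 4.16%, and 707 lower units, 3.28%. Such p-values set the difference against the spread between samples of a group. Nothing is known of separate animals beyond the label of independent experiments.

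With another background correction, 1 array moved far from its group. With normexp correction of the raw foreground by the local background, the difference was 0.48 for ccn1 and 0.31 for ccn2a, and the groups overlapped for both. Sorafenib replicate 4 carried this: its level of ccn1 was 0.63 with normexp, against 3.0 to 3.18 in the other sorafenib samples, and its level of ccn2a 3.30 against 5.24 to 5.46. With that array left out, an alternative added after seeing the data, normexp gave 1.1 for ccn1 and 0.82 for ccn2a. With all arrays, normexp also moved other bright units: among units of like brightness (2152 around ccn1 and 2153 around ccn2a), the median difference went from 0.03 to -0.47 around ccn1 and from 0.03 to -0.54 around ccn2a. Relative to those units, ccn1 was 1.05 higher in sorafenib hearts without normexp and 0.94 higher with it, and ccn2a 0.73 and 0.85 higher. Without sorafenib replicate 4, the normexp medians of those units were 0.01 and 0.06. Quantile normalization gave 1.03 for ccn1 and 0.68 for ccn2a, with gaps of 0.48 between the groups for both. The difference stayed positive for both genes under all 24 alternatives tried. It lay between 0.48 and 1.36 for ccn1 and between 0.31 and 0.95 for ccn2a. For most of these alternatives the sign was fixed beforehand and carries no weight. Groups that do not overlap stay apart when arrays are left out or a single slide is used. Balanced blocks leave the difference unchanged.

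**Figure D2:**
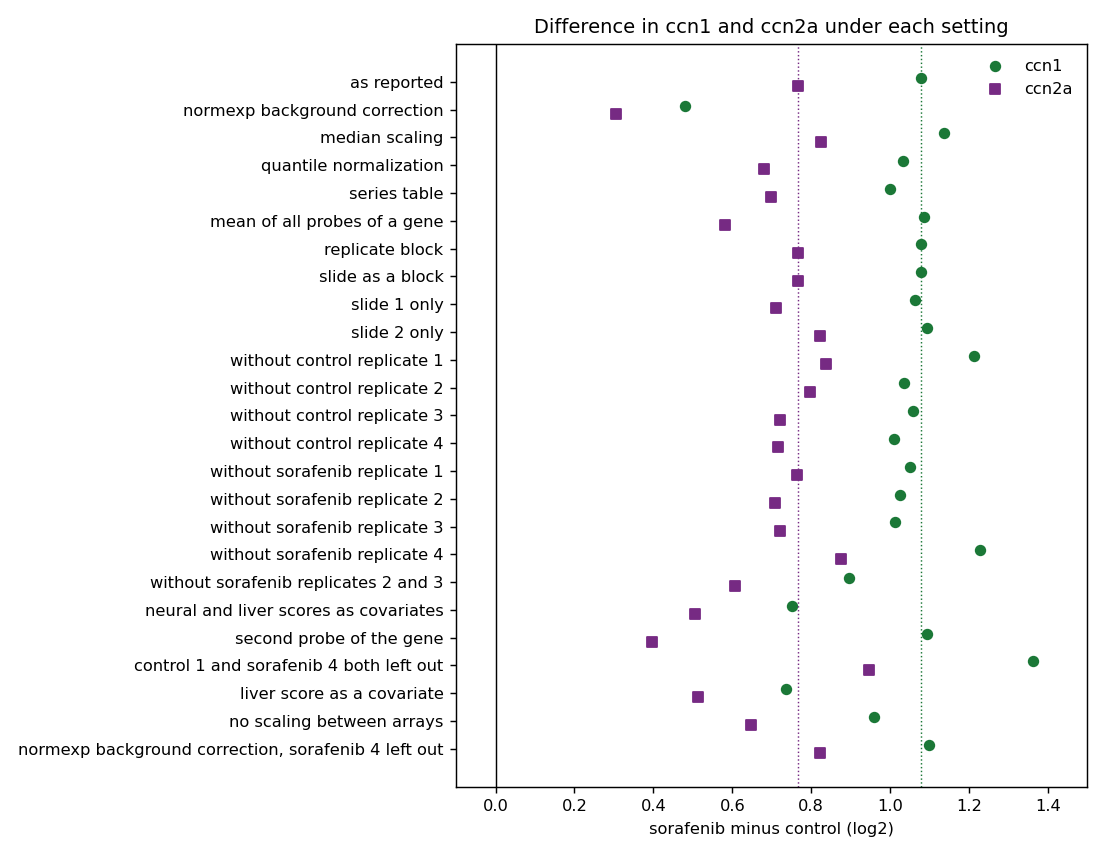
Difference in ccn1 (circles) and ccn2a (squares) between sorafenib and control hearts under each way of processing the arrays. The horizontal axis is the log2 difference of group means, and dotted lines mark the values as reported. All points lie to the right of 0, which was fixed beforehand for most settings. The lowest for both genes, 0.48 and 0.31, come from normexp background correction with all 8 arrays.

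Markers of tissues that a dissected heart can carry along also differed between the samples. A liver and plasma list (7 measured genes, all well above background on all 8 arrays) had a mean score, relative to the mean of all arrays, of -0.87 to 0.26 in control and -0.54 to 1.3 in sorafenib samples. Its median difference was 0.79, and by limma 3 of 7 members had an unadjusted p under 0.05, all higher, against 4.16% of all units, with 0 past adjustment. They included cp, ceruloplasmin (difference 1.16, SE 0.38, adjusted p = 0.583), and c3a.2, a complement C3 gene (1.57, SE 0.52, adjusted p = 0.589). A list of neural genes (12 measured, 11 of them on all 8 arrays) scored 0.01 to 0.49 in control and -1.02 to 0.47 in sorafenib samples, with a median difference of -0.50 and 4 of 12 members lower at an unadjusted p under 0.05, against 3.28% of all units. The low neural scores were those of sorafenib replicates 2 and 3. A list of digestive and yolk genes (15 measured, 14 of them on all 8 arrays) scored -1.95 to 1.25 in control and 0.07 to 1.93 in sorafenib samples, with a median difference of 1.6 and 5 of 15 members higher at an unadjusted p under 0.05, against 4.16% of all units. In none of these lists did a member pass adjustment. The liver fatty acid binding protein gene fabp10a, a defining hepatocyte marker, was well above background on all 8 arrays, with means of 5.91 in control and 6.63 in sorafenib hearts.

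With the liver score as a covariate, the difference was 0.74 for ccn1 and 0.51 for ccn2a, and with liver and neural scores together it was 0.75 and 0.51. Without sorafenib replicates 2 and 3, whose neural scores were low, it was 0.90 for ccn1 and 0.61 for ccn2a. Within groups, the deviation of ccn1 from its group mean had a Pearson r of 0.89 with that of the liver score over the 8 arrays, and ccn2a one of 0.92. With the neural score r was -0.50 for ccn1 and -0.69 for ccn2a. Other lists also had such values: r with ccn1 and ccn2a was 0.81 and 0.84 (fibroblast and mural), 0.76 and 0.82 (skin), 0.70 and 0.82 (Hippo), 0.66 and 0.88 (TGF-beta) and 0.74 and 0.53 (digestive and yolk). For the SRF and MRTF target list r was 0.76 and 0.68, for endothelium 0.69 and 0.70, and for cardiomyocytes 0.55 and 0.75. Not every list had a high r: the values for the YAP and TAZ target list were -0.21 and -0.15. After quantile normalization the liver values were 0.81 and 0.24 and the neural values -0.53 and -0.14. Those of the SRF and MRTF target list were then 0.42 and -0.52. The covariate fits do not test the part of these tissues, since the scores themselves differed between the groups. The mean liver score was -0.44 in control and 0.44 in sorafenib samples, and the mean neural score 0.32 and -0.32. Over 8 arrays, the part of a tissue and that of the drug cannot be told apart in such a fit. The part of these tissues in the level of either gene was not tested.

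Markers of the heart's own cells had differences in both directions, and none passed adjustment by limma. All 11 cardiomyocyte genes measured, of 12 with a probe, had a positive difference (median 0.46), against 48.2% of all units. Their scores were -0.66 to 0.10 in control and -0.30 to 0.79 in sorafenib samples. The largest difference was that of nppa, which was 1.24 higher (SE 0.38, adjusted p = 0.559 by limma). Of 10 endothelial genes with a probe 7 were measured, with a median difference of -0.69. A negative difference was found for 6 of the 7, and for 5 at an unadjusted p under 0.05 by limma, against 3.28% of all units. The endothelial scores did not overlap, 0.10 to 0.33 in control and -0.48 to -0.07 in sorafenib samples. The tight junction gene cldn5b was 0.95 lower (limma adjusted p = 0.372) and tek, an angiopoietin receptor, 0.71 lower (limma adjusted p = 0.404). The 9 fibroblast and mural genes had a median difference of 0.10. By limma 2 of them, tagln and acta2, were higher at an unadjusted p under 0.05, against 4.16% of all units. Both also belong to the list of SRF and MRTF target genes below. All 4 epicardial genes measured, of 6 with a probe, had a positive difference (median 0.39). At that threshold 2 were higher, against the same 4.16% of all units. These were wt1b, a Wilms tumour factor gene, by 0.75 (limma adjusted p = 0.583), and tgm2b, a transglutaminase gene, by 0.48 (limma adjusted p = 0.662). The groups did not overlap for wt1b, as for 2.27% of all units in that direction. The smaller lists had median differences of 0.30 for 7 erythroid, 0.11 for 5 leukocyte, 0.17 for 6 skin, 0.01 for 7 skeletal muscle and -0.10 for 4 cartilage genes. The part of any of these cell types in the levels of ccn1 and ccn2a was not tested.

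The other CCN genes measured had smaller differences, and neither passed the test. The ccn1 relative ccn1l2 had control levels of 0.94, 0.56, 1.04 and 0.18 and sorafenib levels of 1.15, 0.96, 1.63 and 0.45. These groups overlapped, and the difference of 0.37 (SE 0.29) had a limma adjusted p of 0.743. For ccn2b, the other zebrafish copy of ccn2, the control levels were 0.16, 0.04, 0.07 and -0.03 and the sorafenib levels -0.12, 0.26, -0.46 and 0.20. Sorafenib replicates lay both above and below the controls, and the difference of -0.09 (SE 0.19) had a limma adjusted p of 0.916. The difference between ccn2a and ccn2b was not itself tested. The probe of ccn1l1 was well above background on 2 arrays only, control replicate 1 and sorafenib replicate 4, and entered no test. Further CCN genes, ccn3, ccn4a, ccn4b, ccn5 and ccn6, were not analysed here.

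The kinases and scaffolds of the Hippo pathway hold YAP and TAZ in check, and TEAD factors carry YAP and TAZ on DNA. Of 12 measured components, 5 had a positive difference, against 48.2% of all units. The median was -0.07, and 0 components had an unadjusted p under 0.05 by limma. At that threshold 4.16% of all units were higher and 3.28% lower, so 0 of 12 is near the share of all units. The gene wwtr1, which encodes TAZ, was at -3.49 ± 0.47 in control and -3.62 ± 0.56 in sorafenib hearts (SD, n = 4 each), while yap1 was not analysed here. The smallest p-values were those of tead3b, a TEAD transcription factor (difference -0.44, limma adjusted p = 0.67), and vgll4l, a TEAD cofactor gene (0.37, limma adjusted p = 0.677).

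The remaining target genes of YAP and TAZ, listed without ccn1 and ccn2a, lay around 0. Of 13 measured, 8 had a positive difference, against 48.2% of all units, and the median was 0.03 against -0.015 over all units. By limma 1 of 13 had an unadjusted p under 0.05, where 4.16% of all units were higher and 3.28% lower at that threshold, and 0 passed adjustment. That gene was f3b, a coagulation factor III (tissue factor) gene, with control levels of -0.81, -0.16, -0.28 and -0.29 and sorafenib levels of 0.68, 0.46, 0.78 and -0.19. Sorafenib replicate 4 was the lowest of its group and fell among the controls, and at this scaling it was also the lowest sorafenib sample on the brighter probes of ccn1 and ccn2a. The difference of f3b was 0.82 (SE 0.25, limma adjusted p = 0.559). The gene with the next smallest p, ankrd1b, an ankyrin repeat protein gene, went the other way (difference -0.79, limma adjusted p = 0.662). The angiomotin-like genes amotl2a and amotl2b, named after their values were seen, had differences of 0.02 (SE 0.38) and 0.35 (SE 0.48).

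Most measured genes of the SRF and MRTF target list, which mixes immediate early genes with contractile and actin genes, had a positive difference. Of 16 measured, 14 had a positive difference, against 48.2% of all units, and the median was 0.41 against -0.015 over all units. By limma 5 had an unadjusted p under 0.05, all of them higher, against 4.16% of all units. None of the 16 passed adjustment over all units. The immediate early gene junba, an AP-1 subunit, had control levels of 4.65, 4.49, 4.59 and 4.15 and sorafenib levels of 6.55, 5.26, 6.25 and 5.20. Its groups did not overlap, as for 2.27% of all units in that direction. Sorafenib replicates 1 and 3 were the highest, which was not the order seen for ccn1 or ccn2a. Its difference was 1.35 (SE 0.32, limma adjusted p = 0.429).

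Other AP-1 genes of that list were fosab, 1.11 higher (limma adjusted p = 0.596), and junbb, 0.89 higher (limma adjusted p = 0.662). Smooth muscle contractile genes were represented by tagln, transgelin, which was 0.69 higher (SE 0.23, limma adjusted p = 0.596), and acta2, smooth muscle actin, which was 0.80 higher (SE 0.34, limma adjusted p = 0.662). For tagln, the control levels were 1.71, 1.27, 1.70 and 1.11 and the sorafenib levels 2.19, 2.17, 2.52 and 1.68. At this scaling sorafenib replicate 4 again was the lowest of its group and overlapped the controls. The list's median was 0.22 on slide 1 and 0.56 on slide 2. It was -0.03 with normexp correction (0.41 with normexp and without sorafenib replicate 4), 0.08 with the liver and neural scores as covariates and 0.18 without sorafenib replicates 2 and 3.

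The TGF-beta pathway and its targets had a median difference of 0.11 over 12 measured genes, 7 of them positive, against 48.2% of all units. Of the 12 genes, 0 had an unadjusted p under 0.05 by limma, where 4.16% of all units were higher and 3.28% lower. With so few genes this is near the share of all units. The smallest p-values were those of snai2, a zinc finger repressor (difference 0.43, limma adjusted p = 0.676), and bambib, a pseudoreceptor of the pathway (0.32, limma adjusted p = 0.698). The TGF-beta-induced matrix gene tgfbi was at 4.95 ± 0.12 in control and 4.76 ± 0.13 in sorafenib hearts (SD, n = 4 each). The list's median was -0.02 on slide 1 and 0.16 on slide 2.

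The list called other matricellular genes held thrombospondins and tenascins, and also fibronectins, which are not matricellular in the sense given above. Its median difference was -0.06 over 13 measured genes. Of these 5 were positive, against 48.2% of all units. By limma 0 had an unadjusted p under 0.05, where 4.16% of all units were higher and 3.28% lower. The fibronectin gene fn1b had control levels of 4.38, 4.18, 3.99 and 3.79 and sorafenib levels of 4.68, 4.62, 5.61 and 4.08. Sorafenib replicate 3 was the highest of all samples, and the difference was 0.67 (limma adjusted p = 0.662). Its copy fn1a had a difference of -0.36 (limma adjusted p = 0.729), and thbs1b, a thrombospondin gene, one of -0.02. A further list held receptors that CCN proteins bind in mammals, integrins and the proteoglycan syndecan 4 among them, together with caveolin 1. Its median difference was 0.23 over 8 measured genes, 7 of them positive, against 48.2% of all units. Again 0 had an unadjusted p under 0.05 by limma, beside the same shares of all units. In lists this short, 0 is near those shares. The integrin alpha 5 gene itga5 was 0.45 higher (limma adjusted p = 0.676), and cav1, caveolin 1, 0.41 higher (limma adjusted p = 0.676).

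**Figure D3:**
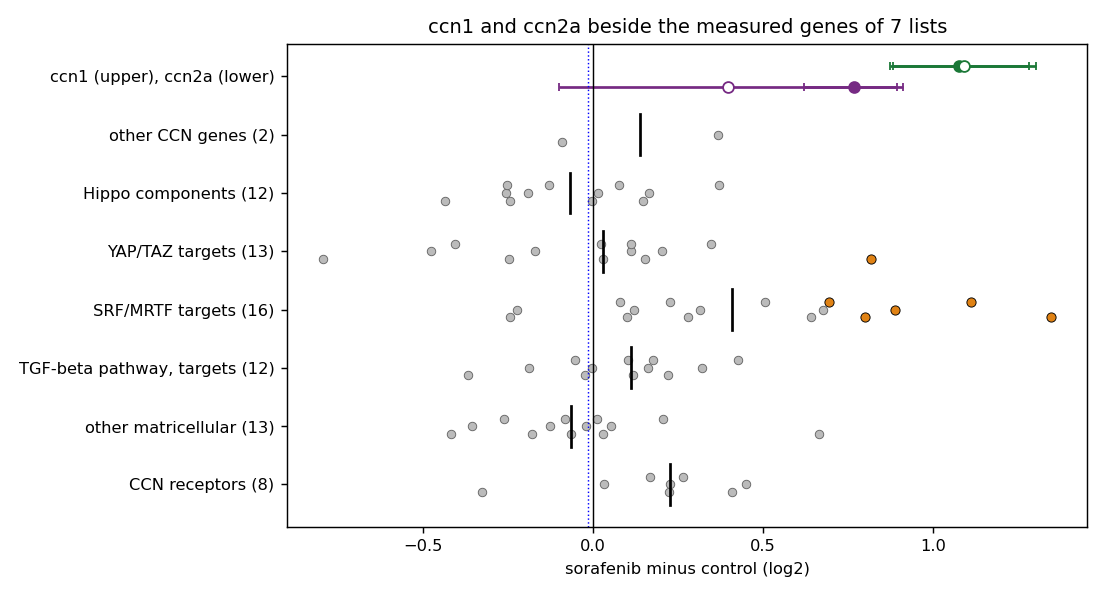
Differences of ccn1 and ccn2a beside the measured genes of 7 lists. The horizontal axis is the log2 difference between sorafenib and control hearts; the top row shows the brighter (filled) and dimmer (open) probe of each gene with its SE, each further point is a gene, orange points have a limma unadjusted p under 0.05, short vertical lines are list medians, the dotted line is the median of all units, and the number of genes measured is in brackets. Only the SRF/MRTF list, with 5 genes, and the YAP/TAZ list, with 1, hold orange points. Of all units 4.16% were higher and 3.28% lower at that threshold.

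Within groups, ccn1 and ccn2a varied together on their brighter probes. Over the 8 arrays, the deviations of both genes from their own group means had a Pearson r of 0.894 (exact two-sided permutation within groups, p = 0.0156, 576 permutations) and a Spearman rho of 0.905 (exact permutation p = 0.0139). This was the only pair tested, and removing the group means takes out the contrast on which the genes were chosen. The permutations exchanged arrays of each group separately, so any link between same-numbered arrays was not taken into account. Leaving out any 1 array gave an r of 0.77 to 0.978. Without both control replicate 1 and sorafenib replicate 4, farthest from the median of ccn1, r was 0.382 over the remaining 6 arrays (exact permutation p = 0.472, 36 permutations). With slide as a block r was 0.86 (exact permutation p = 0.0625). Arrays were there exchanged only within a group on a slide, which allows no lower p, so a p under 0.05 could not arise. A slide on its own holds too few arrays for a value.

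The co-variation also depended on scaling and on the probe. After quantile normalization r was 0.27 (exact permutation p = 0.556), and in the deposited table of the whole series it was -0.02 (exact permutation p = 0.962). The brighter ccn2a probe had an r of 0.50 with the dimmer ccn1 probe (exact permutation p = 0.22), and the brighter ccn1 probe one of -0.64 with the dimmer ccn2a probe (exact permutation p = 0.0729). Between the probes of 1 gene, r was 0.41 for ccn1 and -0.48 for ccn2a. A high r was common in these arrays: of 8244 named genes measured on all 8 arrays, 399, or 4.84%, had a higher r with ccn1 than ccn2a had. An r above 0.8 was found with ccn1 for 15.3% of genes and with ccn2a for 18%. After quantile normalization these shares were 5.77% and 0.91%.

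**Figure D4:**
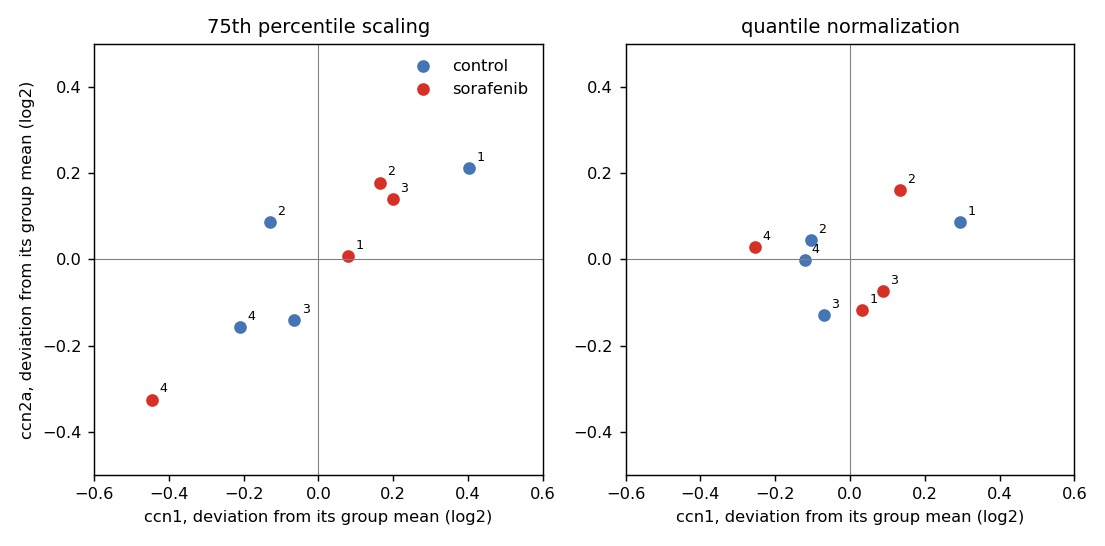
Deviation of ccn2a (vertical axis) against that of ccn1 (horizontal axis) from their group means, log2, brighter probes, 8 arrays numbered by replicate. With 75th percentile scaling (left) the points follow a line between sorafenib replicate 4 and control replicate 1, r = 0.894; after quantile normalization (right) they do not, r = 0.27.

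The genes whose within-group pattern was most like that of ccn1 over the 8 arrays were rabl3 (r = 0.996), cyc1, which encodes cytochrome c1 (0.990), coa7 (0.986), ccdc125 (0.983) and acsl4a, a long-chain acyl-CoA synthetase gene (0.981). For ccn2a they were zgc:154093 (r = 0.993), surf1 (0.991), zgc:110339 (0.991), furina, a furin protease gene (0.990), and bco2l (0.989). To the mean of both genes' deviations the nearest were coa7 (r = 0.998), sgta (0.996) and sgpl1, the sphingosine phosphate lyase gene (0.992). These are the highest of 8244 values each, over 8 arrays that share their scaling, and carry no test. In the drug contrast, which the likeness did not use, coa7 differed by 0.10 between sorafenib and control hearts (limma adjusted p = 0.899), sgta by -0.01 (limma adjusted p = 0.989) and sgpl1 by 0.26 (limma adjusted p = 0.825). Of the genes nearest to ccn1, ccdc125 had the largest difference, 0.67 (SE 0.28, limma adjusted p = 0.662).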

How the data were processed

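The authors deposited 1 scanner file per array, with spot intensity on a linear scale and the local background; per the file headers Feature Extraction 10.1.1.1 was used, while the submitters' processing notes name version 8.0. The processed signal was already background-subtracted, per the file headers, and not normalized between arrays. A series table of log2 values deposited by the authors served as an alternative; how it was centred and filtered is not stated in what was used here. The log2 processed signal minus each array's 75th percentile was computed after leaving out control spots and 5 to 15 outlier spots per array, and 21 values lost this way were filled with the group mean. Of 43603 probes, 15163 (34.78%) were named through accessions in a RefSeq table of assembly GRCz12tu, used for names only. The array annotation uses danRer5, so no coordinates are given. A unit was tested if 4 or more of the 8 arrays had it well above background, with limma 3.58.1 in R 4.3.3 (lmFit, eBayes, Benjamini-Hochberg at 0.05) on all 8 arrays without covariates, after a check on simulated data.

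The members, gene lists and tests were chosen with earlier results of these data known. Named genes were all CCN genes measured, up to 4 members per pathway list at an unadjusted p under 0.05 or otherwise the 2 with the smallest p, some fixed genes, up to 2 per marker list, and the genes nearest in within-group pattern. Exceptions are named as such, as is fabp10a, which was chosen after its values were seen. Alternatives covered background correction, scaling, probe choice, filter, slide, replicate block, array weights, left-out arrays and tissue scores.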

Additional observations from a re-analysis of the deposited data

Results flagged for a closer look

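In 5 of 156 groups of 4 arrays examined, 1 array stood so far from the other 3 that its gap exceeded the 95% critical value of Dixon's ratio, which chance alone passes in about 5% of such groups. None of them was a level of ccn1 or ccn2a. The endothelial gene cldn5b was at 1.99 in sorafenib replicate 1 and at 1.38 to 1.48 in the other sorafenib samples. The skeletal muscle gene tnnt3a was at 3.43 in sorafenib replicate 1, against 3.88 to 3.95. The gene ccdc125, near ccn1 in its within-group pattern, was at 0.61 in sorafenib replicate 4, against 1.54 to 1.72. The erythroid score was -1.27 in control replicate 2, against 0.09 to 0.17 in the other controls. The cartilage score was -0.64 in sorafenib replicate 3, against 0.14 to 0.29.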

How the results depend on the processing

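The differences of ccn1 and ccn2a were positive under all 24 alternatives. That sign was fixed beforehand for most of them: single slides, blocks and arrays left out at the reported scaling. Where the differences moved, the cause was not tested. They moved with normexp correction (0.4789 and 0.3063, but 1.098 and 0.8222 with sorafenib replicate 4 left out as well, added after seeing the data), with both tissue scores, neural and liver, as covariates (0.7517 and 0.5066), with the liver score alone (0.7358 and 0.5137, added after seeing the data) and, for ccn2a, with its second probe (0.3975, also added). Leaving out 1 array gave 1.0085 to 1.2269 for ccn1 and 0.7073 to 0.8754 for ccn2a. Their within-group correlation fell from 0.8944 to 0.2746 with quantile normalization, -0.0154 in the series table and -0.3292 with the mean of a gene's probes. It was 0.5002 with the second ccn1 probe, -0.644 with the second ccn2a probe, 0.3818 without control replicate 1 and sorafenib replicate 4 (these 3 added) and 0.5508 with tissue covariates, where no p was computed. With normexp it was 0.9823 (exact permutation p = 0.0503), and 0.5193 (exact permutation p = 0.375) with sorafenib replicate 4 also left out. With slide as a block it was 0.8633, with an exact permutation p of 0.0625, the lowest that exchange within a group on a slide allows. Without sorafenib replicates 2 and 3 it was 0.8618, also with an exact permutation p of 0.0625. Leaving out 1 array gave a correlation of 0.7696 to 0.978, with an exact permutation p of 0.0625 without control replicate 1 or sorafenib replicate 4. List medians moved with normexp to -0.0348 (SRF/MRTF), -0.3979 (TGF-beta), -0.3722 (other matricellular), 0.1391 (YAP/TAZ) and -0.0204 (receptors). With sorafenib replicate 4 also left out these were 0.4118, 0.0216, -0.0126, 0.114 and 0.2101. With all arrays normexp raised the median of all units to 0.121 and the share with a positive difference from 48.2% to 58.1%. Tissue covariates gave 0.0758 for SRF/MRTF (0.063 with the liver score alone) and -0.0287 for TGF-beta, whose value was -0.0247 on slide 1. Without sorafenib replicates 2 and 3 the medians were -0.0347 (TGF-beta), -0.1696 (other matricellular) and -0.0923 (YAP/TAZ). Leaving out 1 array gave -0.1322 to 0.0774 for other matricellular genes, above 0 without sorafenib replicate 4, and -0.0571 to 0.0978 for YAP/TAZ targets, below 0 without control replicate 4. With no filter on dim probes the other CCN genes had a median of 0.3666, since ccn1l1 entered. Calls over all units numbered 0 as reported, 1 with median scaling, 2 with quantile normalization, 7 with the series table, 1 without control replicate 3 (0 to 1 over single left-out arrays) and 48 with array weights (26 higher, 22 lower). Between same-numbered arrays the r of deviations was 0.038 to 0.697, lowest for replicate 3. Of the 8 arrays 7 correlated best with their own number, a hint from the data and not the design. Sorafenib replicate 3 was the exception, with an r of 0.229 with control replicate 1. The numbers were not taken as pairing. With a replicate block the differences were 1.0784 and 0.7668, and 0 units were called. At an unadjusted p under 0.05 the block gave 6 SRF/MRTF targets in place of 5, and 1 lower YAP/TAZ target in place of 0. It gave 1 higher member in place of 0 in each of the Hippo, TGF-beta, other matricellular, receptor and other CCN lists. The share of all units at that threshold was not computed with the block, so nothing is read from these counts. A planned motif search in promoters was not run. The dimmer ccn2a probe was at 1.94 to 9.22 times background, and whether low signal shaped its values was not tested.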
